A study of Rattus norvegicus with 25 samples.

Results

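The vascular receptors described here are 5 genes whose products are carried mainly by the non-parenchymal cells that line and surround the liver sinusoids: Flt1 and Kdr (VEGF receptors 1 and 2), Pdgfrb (the beta receptor for platelet-derived growth factor), and Ednra and Ednrb (the endothelin A and B receptors). They were taken by gene symbol, and all 5 had at least 1 probe, giving 11 of the 9911 gene probes on the array and 5 of the 6515 genes with a single symbol. The platform annotation itself names 3 of the 5 (Flt1, Kdr and Pdgfrb); Ednra and Ednrb were named through the RefSeq accession that the scanner files print for their probes. The set was chosen by measured values of these same data: in an earlier account of them Ednra was higher and Flt1 lower in the depletion than in the supplemented samples. That comparison is given below as a description with no test. Just inside that choice lay Flt1 (log2 difference -0.71) and Ednra (0.62), and just outside it Pdgfrb (0.44), which missed the threshold there and belongs to the set by its role.

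The sinusoid is a capillary of fenestrated endothelium that runs between plates of hepatocytes. VEGF made by hepatocytes binds Flt1 and Kdr on the endothelium, where Kdr carries most of the growth signal and Flt1 binds the ligand tightly with weak kinase activity. Hepatic stellate cells wrap the sinusoid from outside and carry Pdgfrb, the receptor through which PDGF drives their proliferation, and they contract when endothelin 1 binds Ednra. Ednrb is the main endothelin receptor of endothelial cells, where it clears the peptide and releases nitric oxide, and it is also present on stellate cells.

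The livers came from individual male Sprague-Dawley rats, and the labels state that RNA was not pooled. Chow rats (6 arrays) ate standard laboratory chow as a reference, and their age is not given. The PQQ+ or supplemented rats (6 arrays) ate a purified basal diet to which pyrroloquinoline quinone (PQQ, a redox cofactor of bacterial dehydrogenases) was added, and the PQQ- or deficient rats (6 arrays) ate the same basal diet without it. These diets began in the dams, mated at 10 weeks of age, over the last 10 days of gestation, and the groups were split at 6.5 weeks of age. Depletion rats (3 arrays) were supplemented rats moved to the deficient diet for 48 h. Repletion rats (4 arrays) were deficient rats given PQQ by intraperitoneal injection, 1.5 mg per kg every 12 h for 36 h. No vehicle-injected rats are named in the labels, so PQQ and injection cannot be told apart in the repletion rats, and the units of the dietary dose in the labels do not match each other, so it is not printed.

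Median probe intensity ran from 103 to 281 across the 25 arrays, and 83.3% to 89.9% of probes lay above background. Chow arrays 1 and 2 could hardly be distinguished (log2 ratios with a spread of 0.108), and neither could supplemented arrays 5 and 6 (0.109), where the remaining 27 comparable pairs spread by 0.202 to 0.378. Their means were used as single samples, which gives 23 samples: 5 chow, 5 supplemented, 6 deficient, 3 depletion and 4 repletion. By the defective spots they have in common, the arrays sort into 5 sets. Chow 1 to 3 sit with supplemented 1 (set 1); supplemented 2 and 3 stand by themselves (set 2); supplemented 4 to 6 sit with deficient 1 to 5 (set 3); deficient 6 sits with all depletion arrays (set 4); and chow 4 to 6 sit with all repletion arrays (set 5). Diet groups and array sets therefore run together, and a difference with the array set held fixed rests on few links: deficient 6 alone ties the depletion samples to the rest, and supplemented 1 alone ties chow and repletion to the PQQ+ and PQQ- groups. Chow 4 to 6 against chow 1 to 3 compares sets 5 and 1 within a single diet, in different rats. Values below are log2 normalized intensities of each gene's brightest probe, differences are first group minus second with the standard error (SE) of 1 limma fit over all probes, and a difference was called when its adjusted p was under 0.05. Levels of different genes come from different probes and were not set against each other.

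**Figure D1:**
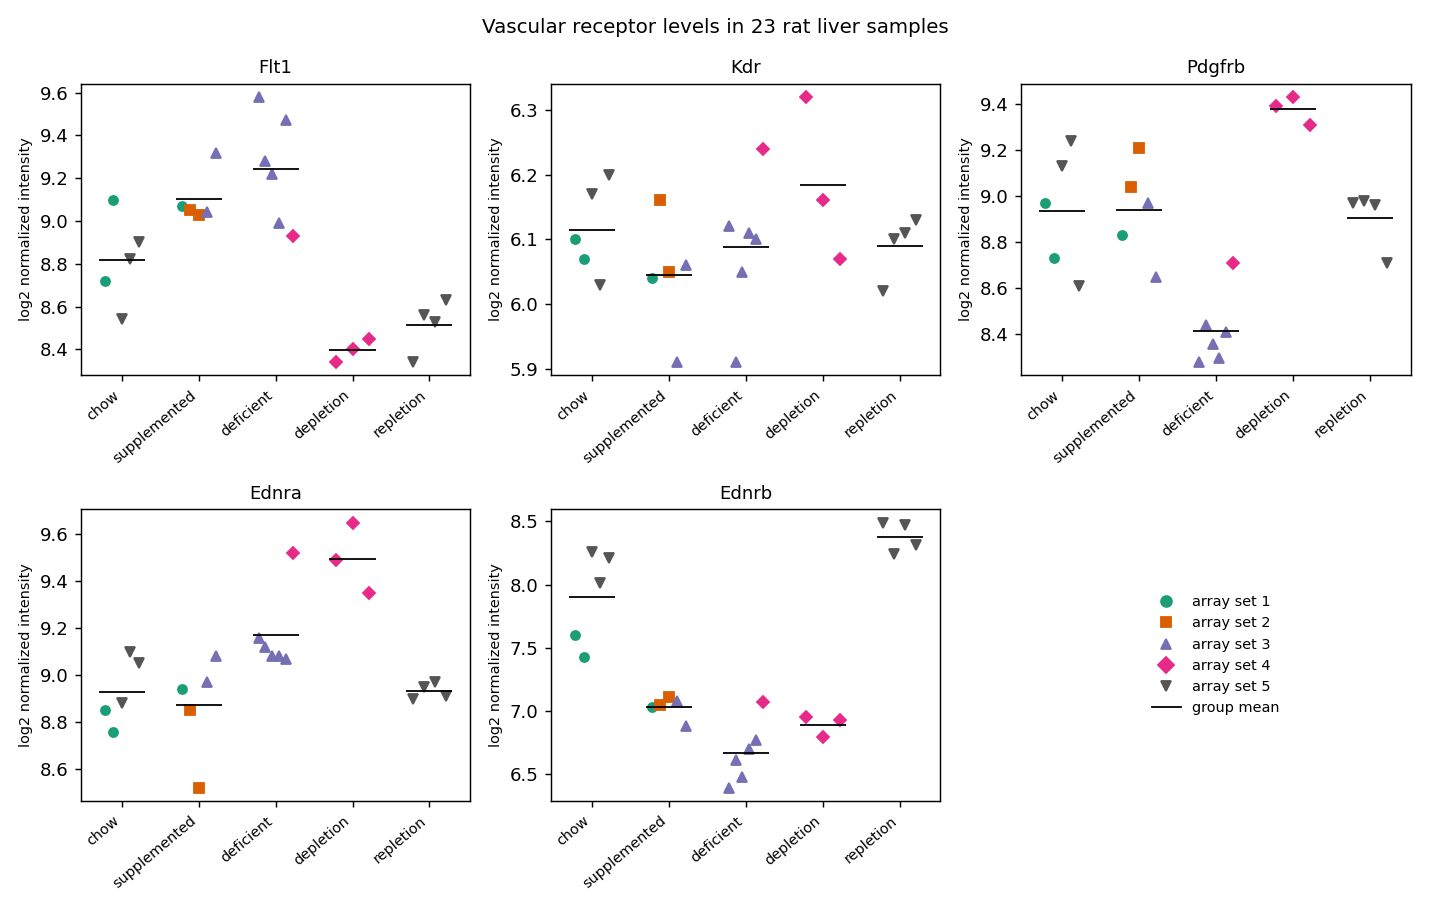
Log2 normalized intensity (vertical axis) of the brightest probe of each receptor in 23 samples by diet group; point shape and colour mark the array set and the bar marks the group mean. Flt1 is lowest in depletion and repletion (8.34 to 8.63), Pdgfrb is lowest in deficient (mean 8.42) and highest in depletion (9.38), the deficient sample with the highest Ednra (9.52) lies in the array set of the depletion samples, and Ednrb exceeds 8 only in array set 5.

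Flt1 was read by 3 probes. The brightest (10232) lay above background on 25 of 25 arrays, the next (20637) on 23 and the dimmest (1128) on 8. Flt1 levels were 8.72 (arrays 1 and 2 averaged), 9.1, 8.54, 8.82 and 8.9 in the chow samples, and 9.07, 9.05, 9.03, 9.04 and 9.32 in the supplemented samples. The deficient samples ran from 8.93 to 9.58 with a median of 9.25. Flt1 was low in every depletion sample (8.34, 8.4 and 8.45) and in every repletion sample (8.34, 8.56, 8.53 and 8.63), and neither group overlapped the supplemented or the deficient samples. By mean, the order from low to high was depletion (8.4 ± 0.06, SD, n = 3), repletion (8.52 ± 0.12, n = 4), chow (8.82 ± 0.21, n = 5), supplemented (9.1 ± 0.12, n = 5) and deficient (9.25 ± 0.25, n = 6). Each group overlapped its neighbour in that order. In RNA of whole liver, fewer cells of a type and less receptor RNA per cell cannot be told apart.

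Flt1 was 1.66-fold lower in repletion than in deficient livers (log2 difference -0.73, SE 0.12, limma adjusted p = 0.000162). Here 3 of the 4 members that could be tested passed, where 36.8% of all probes tested did, a share that makes a called member unremarkable in this comparison. Flt1 also fell in repletion relative to supplemented rats (-0.59, SE 0.13, limma adjusted p = 0.00424; 19.7% of probes called) and in depletion relative to deficient rats (-0.85, SE 0.14, limma adjusted p = 0.000631; 8.2% of probes called). The chow samples lay below the deficient samples (-0.43, SE 0.12, limma adjusted p = 0.00897; 27.9% of probes called). The depletion difference against supplemented rats was -0.71, where 0.293% of all probes tested were called and 2 of the 3 members tested, Flt1 and Ednra, were among them; nothing is read from that count because this contrast proposed the members. Comparisons that use the depletion or the supplemented samples share those samples with it, so their p-values are not independent of that choice.

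With the array set held as a fixed block, Flt1 kept its sign in these comparisons with smaller sizes. Depletion against deficient was -0.54 (limma adjusted p = 0.0453, where 40.2% of probes were called). The repletion difference against deficient became -0.52 (limma adjusted p = 0.739; 1.54% of probes called), that against supplemented -0.4 (limma adjusted p = 0.658), and chow against deficient -0.28 (limma adjusted p = 0.77; 2.33% of probes called). Within array set 4, the 3 depletion samples lay at 8.34 to 8.45 and the lone deficient sample at 8.93, a difference of -0.54 with 1 sample in an arm, so its adjusted p of 0.0999 in limma takes that sample to vary like the others (19.7% of probes called). Within array set 5, the repletion samples (8.34 to 8.63) and chow 4 to 6 (8.54 to 8.9) overlapped, with a difference of -0.24 (limma adjusted p = 0.441). Between the chow arrays of sets 5 and 1 the difference was -0.16 (limma adjusted p = 0.691). Deficient and supplemented rats differed by 0.14 in Flt1 (SE 0.12, 95% interval -0.1 to 0.39, limma adjusted p = 0.539). The other Flt1 probes did not pass the filter on dim probes. Probe 20637 averaged 6.31 in deficient and 6.39 in repletion, and probe 1128 averaged 5.97 and 5.87.

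The genes whose level followed Flt1 most closely over the 23 samples, of 3713 genes compared, were Zfp787 (Pearson r = 0.928, or 0.787 after centring each array set), Gatad2b (0.924 and 0.786), a subunit of the NuRD chromatin complex, and Pfkfb1 (0.884 and 0.703), the liver form of the enzyme that makes and breaks down fructose 2,6-bisphosphate. These are descriptions over samples that share diet groups and array sets. Pfkfb1 averaged 12.65 ± 0.37 (SD, n = 6) in deficient, 12.2 ± 0.22 (n = 5) in supplemented, 11.44 ± 0.18 (n = 4) in repletion and 11.3 ± 0.15 (n = 3) in depletion livers.

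The promoter of Flt1 is shown because Flt1 was the receptor low in both switched groups and because its 250 bases hold several named motifs. In RefSeq (GRCr8) the bases before its start lie at chr12:12333180-12333429 on the plus strand; capitals mark matches to the TATA box, written TATAAA, to the cAMP response element, written TGACGTCA, and to the GC box, written GGGCGG. These and the E-box, written CACGTG, were searched for on both strands, and no matches overlap.
Flt1: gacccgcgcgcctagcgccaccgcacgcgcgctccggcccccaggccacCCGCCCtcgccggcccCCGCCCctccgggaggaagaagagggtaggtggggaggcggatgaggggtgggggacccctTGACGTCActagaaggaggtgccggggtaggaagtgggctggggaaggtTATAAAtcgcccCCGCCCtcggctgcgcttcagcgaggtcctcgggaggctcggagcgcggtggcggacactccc
The TATA box match begins 75 bases before the annotated start, that to the cAMP response element 124 bases before it, and the GC box matches, all in the reverse orientation, 201, 185 and 63 bases before it. Among 33469 rat promoters of that length, 12.9% hold the TATA box letters, 1.59% the cAMP response element, 30.5% the GC box and 5.59% the E-box, and the E-box letters are not in this window. Of the 5 members, 4 matched an entry in the promoter table. A match describes letters, not a bound factor.

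Kdr gave little signal. Its brighter probe (10632) lay above background on 22 of 25 arrays and the other (12812) on 5, and neither passed the filter on dim probes in any comparison, so no difference was tested. The levels of probe 10632 ran from 6.03 to 6.2 in chow, 5.91 to 6.16 in supplemented, 5.91 to 6.24 in deficient, 6.07 to 6.32 in depletion and 6.02 to 6.13 in repletion samples. All 5 ranges overlap. The group means were 6.04 to 6.18, with depletion highest (6.18 ± 0.13, SD, n = 3), and the deficient sample at 6.24 was deficient 6, on the array set of the depletion samples. These levels sit close to the normexp floor, where differences are compressed, so a change in Kdr was not detectable with this probe at this signal. The genes most like it were Virma (r = 0.687), Gucy1a1 (0.683), a subunit of the nitric oxide receptor soluble guanylate cyclase, and Slc25a26 (0.669).

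Pdgfrb was lowest on average in the deficient livers and highest in the depletion livers. Its brighter probe (16843) lay above background on all 25 arrays and its other probe (11127) on none. Pdgfrb was 8.97, 8.73, 9.13, 9.24 and 8.61 in chow and 8.83, 9.04, 9.21, 8.97 and 8.65 in supplemented samples. The 6 deficient samples ran from 8.28 to 8.71 with a median of 8.39, and the 8.71 was deficient 6. The depletion samples were at 9.39, 9.43 and 9.31, above every other sample in the study. The repletion samples were at 8.97, 8.98, 8.96 and 8.71. The mean was lowest in deficient (8.42 ± 0.15, SD, n = 6), with repletion (8.9 ± 0.13, n = 4), chow (8.94 ± 0.26, n = 5) and supplemented (8.94 ± 0.21, n = 5) overlapping each other in the middle and depletion highest (9.38 ± 0.06, n = 3).

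Pdgfrb fell in deficient relative to supplemented livers by 1.44-fold (-0.52, SE 0.12, limma adjusted p = 0.0152), the only 1 of 3 tested members called there, against 3.54% of all probes. It was higher after repletion than in deficient livers by 1.4-fold (0.49, SE 0.13, limma adjusted p = 0.00454) and higher in chow than in deficient livers by 1.43-fold (0.52, SE 0.12, limma adjusted p = 0.00282). It was higher in depletion than in deficient livers by 1.95-fold (0.96, SE 0.14, limma adjusted p = 0.000289). The depletion mean exceeded the supplemented mean by 0.44, given without a test. Repletion lay below depletion (-0.47, SE 0.15, limma adjusted p = 0.0451, with 10.5% of probes called), a call lost when any 1 of the 7 samples was left out (adjusted p of 0.0556 to 0.152) and with the authors' value table (-0.53, limma adjusted p = 0.0509). The call against supplemented livers was lost without supplemented 3 (-0.46, limma adjusted p = 0.0584).

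Pdgfrb differed little between repletion and chow (-0.03, 95% interval -0.3 to 0.24, limma adjusted p = 0.939), where 0 of 4 tested members and 1.54% of probes were called, and the interval between chow and supplemented ran from -0.26 to 0.25. Within array set 3, deficient 1 to 5 (8.28 to 8.44) lay below supplemented 4 (8.97) and the averaged supplemented 5 and 6 (8.65) by 0.45 on average (log2 difference -0.45, SE 0.12, limma adjusted p = 0.171 in that smaller fit, where 0.194% of probes were called). Within array set 4, the 3 depletion samples lay above deficient 6, again a single sample, by 0.67. With the array set as a fixed block, depletion against deficient was 0.67 (limma adjusted p = 0.0116, where 40.2% of probes were called). Like that of Flt1, this value rests on deficient 6. Other blocked values were repletion against depletion -0.29 (limma adjusted p = 0.661), deficient against supplemented -0.45 (limma adjusted p = 0.174), repletion against deficient 0.38 (limma adjusted p = 0.839) and chow against deficient 0.48 (limma adjusted p = 0.515). Chow 4 to 6 against chow 1 to 3 differed by 0.15 (limma adjusted p = 0.711).

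**Figure D2:**
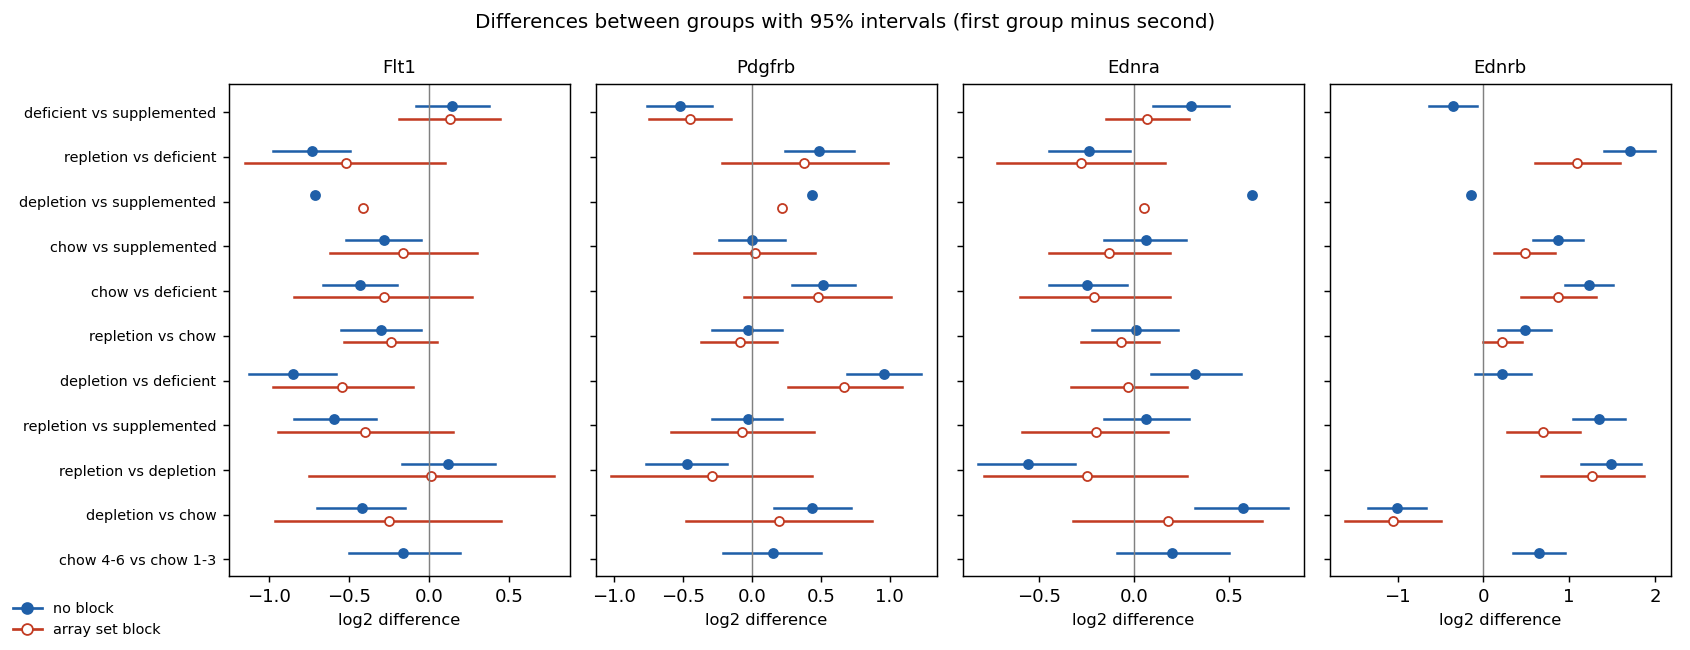
Log2 difference (horizontal axis, first group minus second) of the 4 receptors above background, for 10 group comparisons and for chow 4-6 against chow 1-3, in the fit without (filled) and with the array set as a fixed block (open), with no filter on dim probes; lines are 95% intervals, left out for depletion vs supplemented, and an open point is missing where the comparison has no link within a set or the probe was not fitted. Ednrb moves from 1.71 to 1.09 in repletion vs deficient and Ednra from 0.32 to -0.03 in depletion vs deficient when the set is held fixed.

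The gene most like Pdgfrb was Bmal1, a core activator of the circadian clock (r = 0.9 over 23 samples, and 0.863 after centring each array set). Bmal1 averaged 6.94 ± 0.16 (SD, n = 6) in deficient, 7.95 ± 0.38 (n = 5) in chow, 8.38 ± 0.32 (n = 5) in supplemented, 8.38 ± 0.58 (n = 4) in repletion and 9.04 ± 0.43 (n = 3) in depletion livers, with deficient lowest and depletion highest as for Pdgfrb. The labels do not give the hour at which livers were taken, and the part of sampling time in the Pdgfrb differences was not tested. Ptpa, an activator of protein phosphatase 2A, followed (r = 0.832), then Rab38 (0.8), a small GTPase of vesicle transport.

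**Figure D3:**
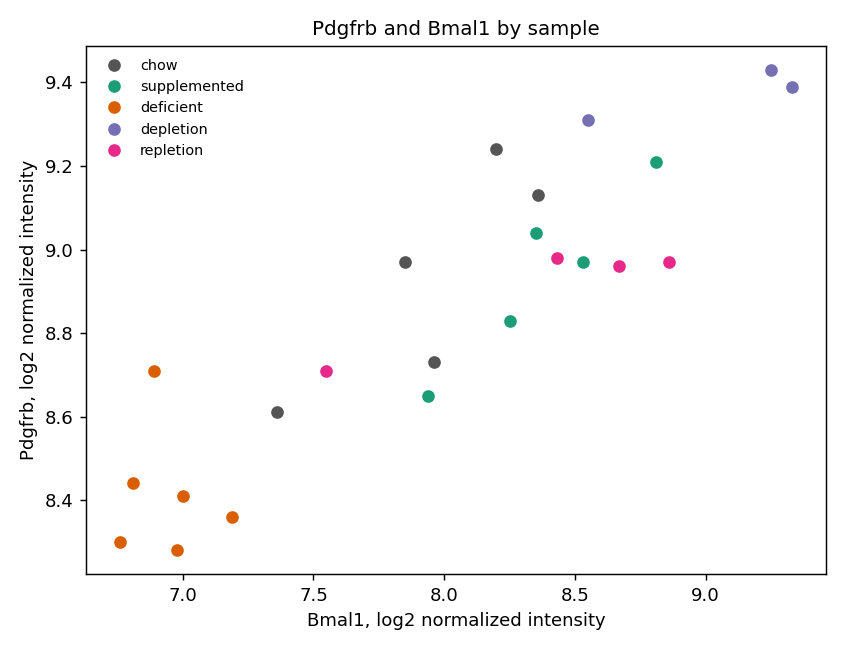
Log2 normalized intensity of Pdgfrb (vertical axis) against Bmal1 (horizontal axis) in 23 samples, coloured by diet group. The 6 deficient samples lie at the low end of Bmal1 (6.76 to 7.19). In Pdgfrb, 5 of them are lowest (8.28 to 8.44), and deficient 6 at 8.71 lies among samples of other groups. The 3 depletion samples lie at the high end of Pdgfrb (9.31 to 9.43), and the Pearson r is 0.9.

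Ednra was high in the depletion livers and in 1 deficient liver that shares their array set. Its brighter probe (21636) lay above background on all 25 arrays and its other probe (9645) on none. Ednra was 8.85, 8.76, 8.88, 9.1 and 9.05 in chow and 8.94, 8.85, 8.52, 8.97 and 9.08 in supplemented samples. The deficient samples ran from 9.07 to 9.52 with a median of 9.1; 5 of them lay at 9.07 to 9.16, and deficient 6 gave the 9.52. The depletion samples were at 9.49, 9.65 and 9.35, and the repletion samples stayed within 8.9, 8.95, 8.97 and 8.91. The order of means was supplemented (8.87 ± 0.22, SD, n = 5), chow (8.93 ± 0.14, n = 5), repletion (8.94 ± 0.03, n = 4), deficient (9.17 ± 0.18, n = 6) and depletion (9.5 ± 0.15, n = 3). The first 3 overlap throughout, and depletion overlaps deficient only through deficient 6.

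The depletion mean exceeded the supplemented mean by 0.62, or 1.54-fold, with no test because this value proposed the gene; with the array set held fixed the difference was 0.05. Other comparisons of Ednra that use the depletion or supplemented samples share the values that proposed the gene. Their p-values are not independent of that choice. Ednra was lower in repletion than in depletion livers (-0.56, SE 0.13, limma adjusted p = 0.0107) and higher in depletion than in chow livers (0.57, SE 0.13, limma adjusted p = 0.00793, with 9.26% of probes called). The first call was lost without depletion 1 (limma adjusted p = 0.0506) or depletion 2 (limma adjusted p = 0.0748), and the second without depletion 2 (limma adjusted p = 0.0725). As a block, the array set reduced these to -0.25 (limma adjusted p = 0.589) and 0.18 (limma adjusted p = 0.631). Depletion against deficient was 0.32 (SE 0.12, limma adjusted p = 0.114) over all 6 deficient samples and 0.39 (limma adjusted p = 0.0227) without deficient 6. Within array set 4, the mean of the depletion samples was 9.5 and the lone deficient sample was at 9.52, a difference of -0.03 with 1 sample in an arm. Deficient against supplemented was 0.3 (SE 0.11, limma adjusted p = 0.121) and 0.07 within array set 3, and repletion against deficient was -0.24 (SE 0.11, limma adjusted p = 0.103). All 3 depletion samples lie in array set 4, so in the other comparisons of Ednra the diet switch and the array set cannot be told apart.

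The genes most like Ednra were Smpd1, acid sphingomyelinase (r = 0.845), Zfp846 (0.795) and Mrtfa (0.782), a coactivator of serum response factor. After centring each array set these values were 0.514, 0.111 and 0.64.

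Ednrb gave a log2 difference of 1.71 between repletion and deficient livers by its brighter probe and of -0.18 by its other probe. The brighter probe (11645) lay above background on all 25 arrays. Ednrb was 7.6, 7.43, 8.26, 8.01 and 8.21 in chow and 7.03, 7.05, 7.11, 7.08 and 6.88 in supplemented samples. The deficient samples ran from 6.39 to 7.07 with a median of 6.65, and the highest was again deficient 6. The depletion samples were at 6.95, 6.79 and 6.93. All 4 repletion samples were high, at 8.49, 8.24, 8.47 and 8.31, and only chow 4 at 8.26 reached into their range. The order of means was deficient (6.67), depletion (6.89), supplemented (7.03), chow (7.9) and repletion (8.38); the first 3 overlapped, chow and repletion overlapped, and the gap between supplemented (up to 7.11) and chow (from 7.43) held no sample.

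Ednrb rose in repletion over deficient livers by 3.27-fold (1.71, SE 0.15, limma adjusted p = 3.61e-07). Repletion also exceeded supplemented livers (1.35, SE 0.15, limma adjusted p = 3.4e-05) and depletion livers (1.49, SE 0.17, limma adjusted p = 0.000108). Chow exceeded deficient livers by 2.35-fold (1.23, SE 0.14, limma adjusted p = 1.8e-05) and supplemented livers by 1.83-fold (0.87, SE 0.14, limma adjusted p = 0.00115, with 9.78% of probes called), and depletion lay below chow (-1.01, SE 0.17, limma adjusted p = 0.00108). Because its level in deficient, supplemented and depletion livers was under the array median, Ednrb passed the filter only in comparisons with chow or repletion, where it is high, so its being called among tested members carries no further weight.

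Ednrb also differed within a single diet. Chow 4 to 6 (8.01 to 8.26), on the array set of the repletion samples, exceeded chow 1 to 3 (7.43 and 7.6) by 0.65 (SE 0.16, limma adjusted p = 0.0272, where 3.41% of probes and 1 of 4 tested members were called). These are also different rats, and the part of the array set in this difference was not tested. That call was lost without chow 3 (0.56, limma adjusted p = 0.312), chow 4 (0.6, limma adjusted p = 0.088) or chow 6 (0.62, limma adjusted p = 0.0748). Within array set 5, repletion exceeded chow by 0.22 (SE 0.12, limma adjusted p = 0.441, with 0.76% of probes called), and over all chow samples by 0.48 (SE 0.15, limma adjusted p = 0.119). With the array set as a fixed block, the repletion difference against deficient was 1.09 (limma adjusted p = 0.0163) and against depletion 1.27 (limma adjusted p = 0.0123; 7.73% of probes called), chow against deficient was 0.87 (limma adjusted p = 0.028) and depletion against chow -1.05 (limma adjusted p = 0.0105; 19.2% of probes called). Repletion against supplemented became 0.7 (limma adjusted p = 0.123) and chow against supplemented 0.48 (limma adjusted p = 0.192). These blocked values rest on supplemented 1, the only PQQ+ or PQQ- sample that shares a set with chow. Those that use depletion samples rest also on deficient 6, the highest deficient sample (7.07, others 6.39 to 6.77).

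The second Ednrb probe (21921), also above background on all 25 arrays, did not show the rise. It averaged 6.81 in deficient and 6.63 in repletion, a difference of -0.18 (limma adjusted p = 0.0125 with no filter on dim probes, where 31.6% of probes were called), where probe 11645 gave 1.71. In chow 4 to 6 against chow 1 to 3 it differed by 0.04. Over the 23 samples the probes had a Pearson r of -0.404, or 0.16 after centring each array set. Both were named Ednrb through the accession in the scanner files, and which of them reads the receptor more faithfully was not tested, so the direction of the Ednrb change depends on the probe.

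**Figure D4:**
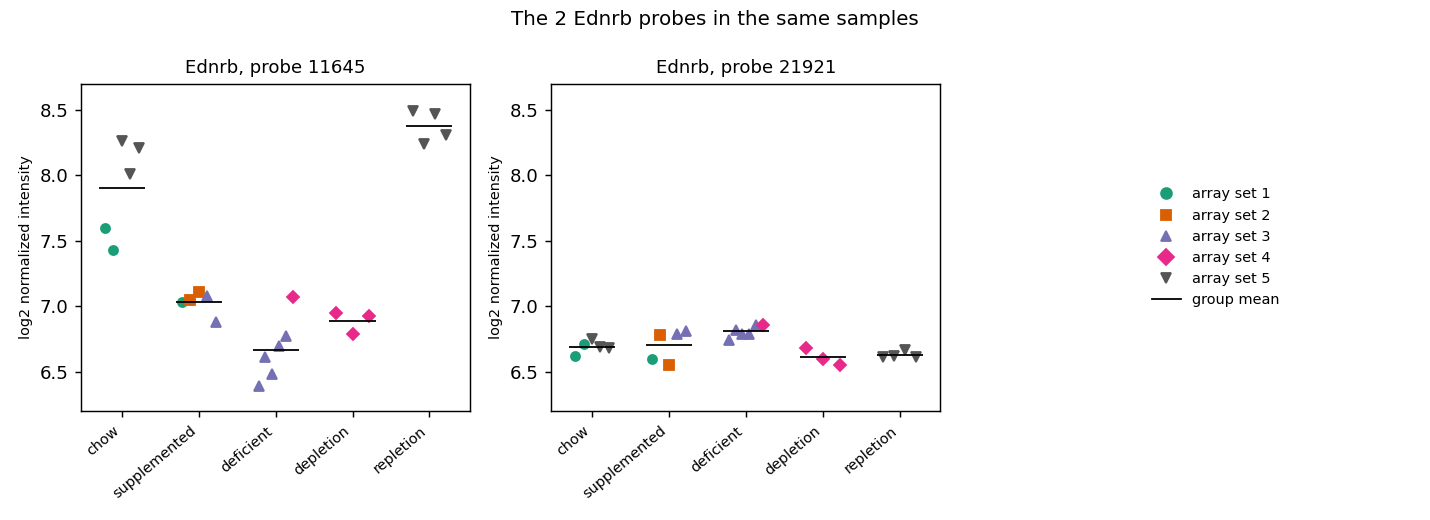
Log2 normalized intensity (vertical axis, same range) of probes 11645 and 21921, both assigned to Ednrb, by diet group; point shape and colour mark the array set and bars are group means. Probe 11645 is above 8 in array set 5, chow and repletion alike, whereas probe 21921 stays between 6.55 and 6.86 in every sample.

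The genes most like Ednrb by probe 11645 were Lman1, a cargo receptor of the secretory pathway (r = 0.976), Med19, a Mediator subunit (0.974), and Srrm2, a splicing factor (0.961), falling to 0.688, 0.664 and 0.605 after centring each array set. Lman1 averaged 11.06 ± 0.23 (SD, n = 4) in repletion, 10.41 ± 0.98 (n = 5) in chow and 8.39 ± 0.45 (n = 6) in deficient livers, and its chow samples ran from 8.96 to 11.16. The promoters of the endothelin receptors are shown beside that of Flt1 for comparison of their letters: Ednra at chr19:47137674-47137923 (plus strand) and Ednrb at chr15:87086766-87087015 (minus strand, written 5′ to 3′), RefSeq GRCr8.
Ednra: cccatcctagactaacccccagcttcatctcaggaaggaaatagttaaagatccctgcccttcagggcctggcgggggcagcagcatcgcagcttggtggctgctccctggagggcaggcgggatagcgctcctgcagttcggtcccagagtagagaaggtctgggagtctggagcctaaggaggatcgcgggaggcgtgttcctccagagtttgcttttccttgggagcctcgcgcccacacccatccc
Ednrb: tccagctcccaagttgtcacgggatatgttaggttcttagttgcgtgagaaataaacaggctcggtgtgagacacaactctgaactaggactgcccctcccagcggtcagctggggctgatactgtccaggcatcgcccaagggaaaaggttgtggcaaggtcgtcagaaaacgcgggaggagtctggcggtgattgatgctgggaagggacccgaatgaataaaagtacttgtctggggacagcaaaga
Neither window holds any of the 4 motifs on either strand, so no letters are in capitals; this says nothing about the factors.

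Few ligands and co-receptors of these pathways were bright enough to test. Of 8 VEGF ligands and co-receptors with a probe, 3 could be tested in repletion against deficient livers, where 36.8% of all probes were called. Of these 1 passed: Nrp1, the co-receptor that presents VEGF to Kdr, rose from 7.05 to 8.54 (1.49, SE 0.26, limma adjusted p = 0.000217). Nrp1 was also higher in chow than in deficient livers (1.45, SE 0.24, limma adjusted p = 0.000279). With the array set as a block, its 2 differences were 0.44 (limma adjusted p = 0.923) and 0.64 (limma adjusted p = 0.653). Nrp1 lay under the array median in every deficient sample, so it was tested there only through repletion or chow, where it is high. Its being called carries no further weight. Vegfa, the ligand of Flt1 and Kdr, averaged 11.53 ± 0.44 (SD, n = 6) in deficient and 11.8 ± 0.24 (n = 4) in repletion livers and did not pass (0.27, limma adjusted p = 0.273). Of the PDGF list, 4 of 6 genes had a probe and 1 was bright enough to test. That gene, Pdgfa, a PDGF chain, was higher in chow (9 ± 0.29, SD, n = 5) than in supplemented (8.12 ± 0.29, n = 5) livers by 0.88 (SE 0.15, limma adjusted p = 0.00115), and by 1.15 (limma adjusted p = 0.00274) with the array set as a block. Chow also exceeded deficient livers in Pdgfa (0.74, limma adjusted p = 0.000689, and 1.13 with the block, limma adjusted p = 0.0198). These blocked Pdgfa values rest on supplemented 1, the lowest supplemented sample at 7.61, where the others lay at 8.19 to 8.37. Their larger size therefore carries no further weight. Of 4 endothelins and converting enzymes with a probe, 1 could be tested: Ece1, the enzyme that cuts big endothelin to its active form, rose in repletion over deficient livers (0.76, SE 0.21, limma adjusted p = 0.00762; 0.26 with the block, limma adjusted p = 0.928), where deficient 6 (9.8) lay far below the other deficient samples. The peptide gene Edn1 averaged 6.74 to 7.05 by group and was too dim to test.

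Other receptors of the vessel wall are given mainly for repletion against deficient livers, where 36.8% of all probes were called. All 4 tested of the angiopoietin and TGF-beta receptor list fell in repletion relative to deficient livers, with a median of -0.59 beside -0.03 over all probes tested: Tek, the angiopoietin receptor (-0.67, limma adjusted p = 0.00241), Tie1, its partner (-0.4, limma adjusted p = 0.0191), Tgfbr1 (-0.51, limma adjusted p = 0.0213) and Tgfbr3, betaglycan (-1.19, limma adjusted p = 8.25e-05). With the array set as a block, their differences were -0.23, -0.18, -0.43 and -0.93, with limma adjusted p of 0.477 to 0.953. Tgfbr3 was lower in chow than in deficient livers as well (-1.01, limma adjusted p = 0.000338). Tgfbr3 lay under the array median in repletion and in most chow samples, so it was tested only through deficient livers, where it is high. Its being called carries no further weight. Among 13 other vasoactive receptors with a probe, 2 of 5 tested fell in repletion relative to deficient livers. These were Adra1d, an alpha1 adrenergic receptor (-0.53, limma adjusted p = 0.00171), and Npr2, the receptor for C-type natriuretic peptide (-0.56, limma adjusted p = 0.00034). Adra1d and Npr2 lay under the array median in every repletion sample, so they were tested only through deficient livers, where they are high. Their being called carries no further weight. Avpr1a, the vasopressin V1a receptor of hepatocytes, fell in deficient relative to supplemented livers (-1.08, SE 0.3, limma adjusted p = 0.0445). Avpr1a was higher in depletion than in deficient livers (1.18, SE 0.34, limma adjusted p = 0.035, and 2.31 with the block, limma adjusted p = 0.000537). The blocked value rests on deficient 6, the lowest sample for Avpr1a (10.62, other deficient samples 11.45 to 12.41). That blocked fit called 40.2% of all probes. Of the signalling adaptors, 5 of 10 with a probe were tested, and in repletion against deficient livers the kinase gene Src rose (1.43, limma adjusted p = 0.00505) and Ptk2, focal adhesion kinase, fell (-0.38, limma adjusted p = 0.0227); with the block these were 0.68 (limma adjusted p = 0.937) and -0.02 (limma adjusted p = 0.993). In depletion against supplemented livers no gene of any of these lists passed.

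**Figure D5:**
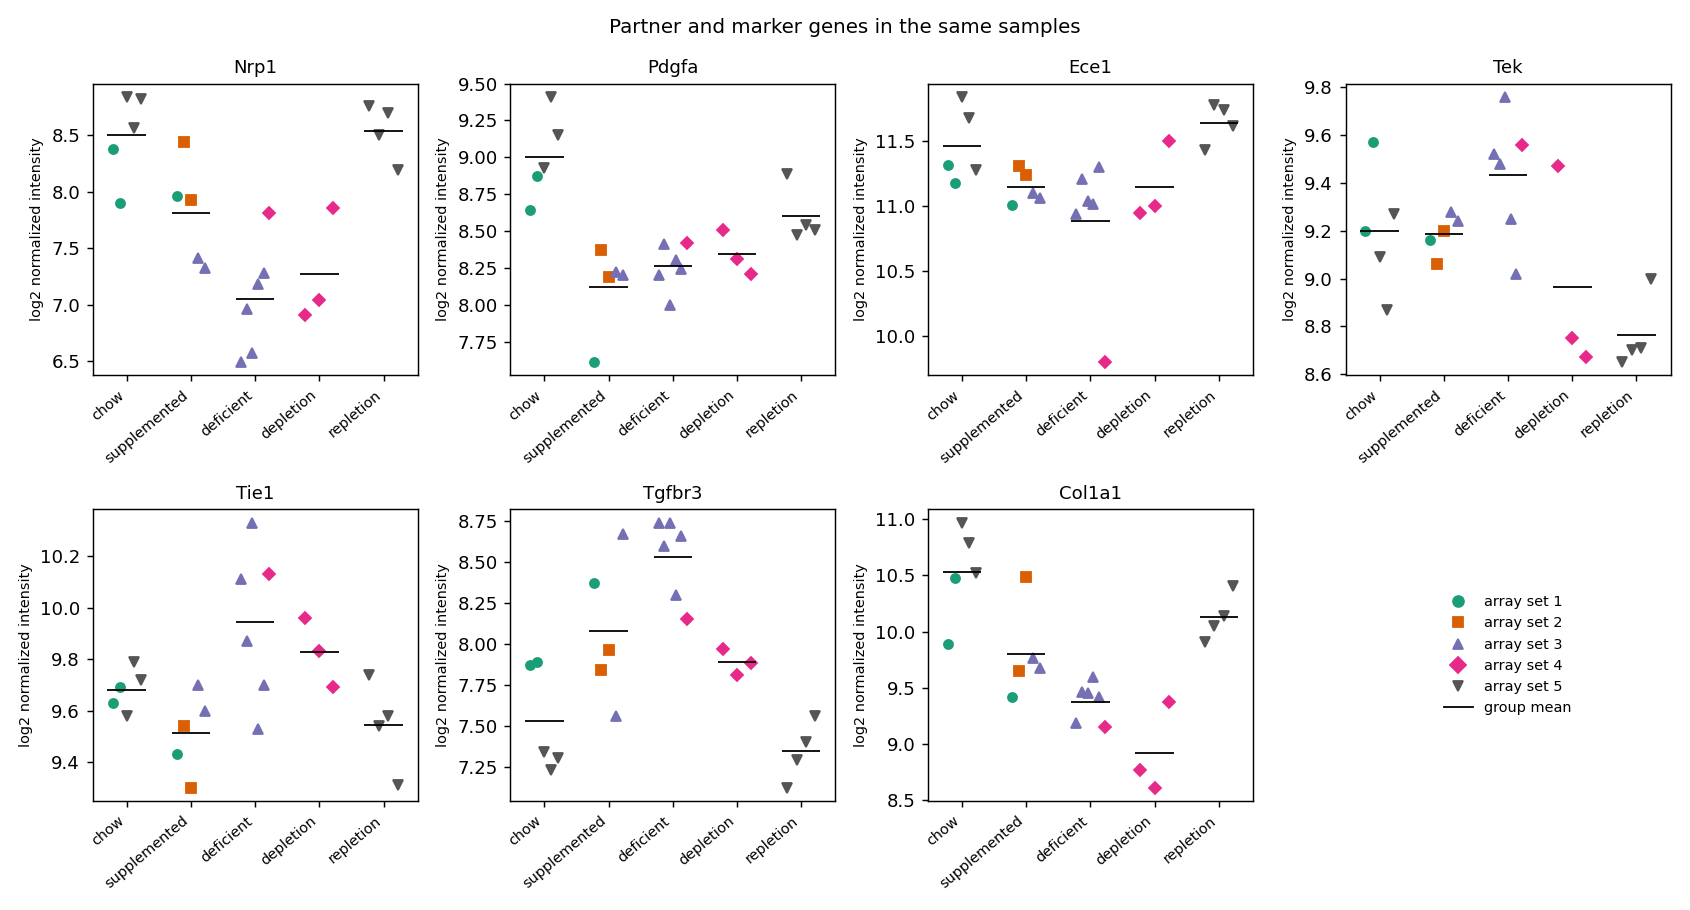
Log2 normalized intensity (vertical axis) of Nrp1, Pdgfa, Ece1, Tek, Tie1, Tgfbr3 and Col1a1 in 23 samples by diet group; point shape and colour mark the array set and bars are group means. Nrp1 averages 7.05 in deficient and 8.54 in repletion, Pdgfa is highest in chow (mean 9), and the samples of array set 5 lie together in Tgfbr3 whether from chow or repletion.

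Markers of the cells that carry the receptors were present. All 12 sinusoidal endothelial markers with a probe lay above background on every array where the spot was not flagged as defective, as did 8 of 10 stellate and fibroblast markers, 5 of 7 smooth muscle markers and 7 of 7 Kupffer cell markers. Some of these had no reading in part of the study: Vwf was flagged on all 4 repletion arrays, and Dcn and Cspg4 were each read on 1 of 6 deficient arrays. The summed level of the endothelial markers (log2 of the sum over 11 genes) ran from 13.34 to 13.52 in deficient, 13.29 to 13.54 in depletion, 13.05 to 13.5 in repletion, 13.17 to 13.52 in supplemented and 13.27 to 13.45 in chow samples, so all groups overlap. In repletion against deficient livers, 3 of 9 tested endothelial markers fell (Tek, Tie1 and Thbd, thrombomodulin, -0.4, limma adjusted p = 0.0383) and none rose, with a median of -0.2. That count is near the 36.8% of all probes called there. In depletion against deficient livers 1 of 10 fell (Thbd, -0.57, limma adjusted p = 0.0313), with a median of -0.28 and 8.2% of probes called. There Thbd lay under the array median in the depletion samples and was tested only through deficient livers, where it is high. In depletion against chow livers 1 of 9 rose (9.26% of probes called). In chow against deficient livers 1 of 9 fell (27.9% called), and in repletion against depletion livers 1 of 10 fell (10.5% called). The summed level of 7 stellate markers was 14.25 to 14.68 in deficient, 14.02 to 14.5 in depletion and 14.56 to 14.66 in repletion samples. Col1a1, the collagen I chain made by activated stellate cells, was higher in repletion (0.75, limma adjusted p = 0.00616) and in chow (1.15, limma adjusted p = 0.000219) than in deficient livers, and lower in depletion than in chow livers (-1.61, SE 0.23, limma adjusted p = 0.000446); with the block these were 0.44 (limma adjusted p = 0.91), 1.07 (limma adjusted p = 0.264) and -1.3 (limma adjusted p = 0.0772). Depletion livers, the group with the highest Pdgfrb, had a low mean of Col1a1 (8.91 ± 0.4, SD, n = 3, beside 9.38 ± 0.17, n = 6, in deficient livers). Of the Kupffer cell markers, 4 of 6 tested rose in repletion (36.8% of all probes called) and 5 of 6 in chow (27.9%) relative to deficient livers, none of them called with the array set as a block (limma adjusted p of 0.37 or more). In chow 4 to 6 against chow 1 to 3, 1 of the 6 was higher (C1qc, 0.89, limma adjusted p = 0.0243). In the same list, 2 of 6 tested fell in deficient relative to supplemented livers, where 3.54% of all probes were called. These were Cd14 (-0.76, limma adjusted p = 0.00943) and Lyz2 (-1.05, limma adjusted p = 0.0194). With the block their limma adjusted p was 0.169 and 0.236. Lyz2 lay under the array median in deficient livers and was tested there only through the supplemented samples, where it is high. Of the remaining marker lists, 1 of 3 smooth muscle markers rose and 1 fell in repletion relative to deficient livers (36.8% of probes called). There 1 of 2 blood cell markers rose. In chow, 1 of 5 hepatocyte markers was lower than in deficient (27.9% of probes called) or supplemented livers (9.78% called). Of the cholangiocyte markers, 0 of 2 passed in any group comparison. The part of any of these cell types in the receptor differences was not tested.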

How the data were processed

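The arrays were CodeLink UniSet Rat I, hybridised with a single biotin-labelled liver RNA each, per the labels. Scanner tables, as deposited, give each spot's intensity before and after local background subtraction, the background and a flag of 0 or 1 (unit other), per the file headers, with no normalization between arrays. The authors' deposited value table holds a linear processed signal whose normalization, like the scanner and its software, is not given in the sources used here; it served as an alternative. No detection flag is given, so a spot counted as above background when its intensity beat a limit set from the array's own bacterial controls (9 kinds with almost no signal; median plus 3 times the MAD, 8.73 to 12.8).

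Background was corrected with normexp (offset 50) in limma 3.58.1 (R 4.3.3), 488 control spots were dropped, flagged spots (54 to 169 per array, none of a member probe) set to missing, and 9911 gene probes quantile normalized and put on a log2 scale. Of these, 7356 had a single symbol (178 of them from the accession in the scanner file), 86 several and 2469 none. Arrays of a group and set with log2 ratios spread by less than 0.15 were averaged, and array sets were formed where over 0.5 of defective spots were shared; both limits were chosen with the data known. A probe was tested where 50% or more of either group's samples had it above their array's median. A gene under the median in 1 group was thus tested only through the other, where it is high. Its call in that direction carries no further weight. All groups entered 1 limma fit with Benjamini-Hochberg adjustment over the probes tested (threshold 0.05, 2-sided). Fits with array set as a fixed or random block, and fits within a set, were also made; the set is a property of the arrays, not a recorded extraction batch.

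The 5 members and the 13 gene lists were chosen with earlier results of these data known. Named list genes are up to 4 per list and comparison that passed; likeness is Pearson's r over 23 samples among 3713 genes above background on every array, and the 3 highest are named. P-values measure the spread between rats and between arrays together. The number of arrays limits the precision. The fit was tested on simulated data. Sequences are from RefSeq (GRCr8). Figures were drawn with Python 3.11.15 and matplotlib 3.10.9.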

Additional observations from a re-analysis of the deposited data

Results flagged for a closer look

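Among the 24 probe and group combinations (6 probes of the 5 receptors) with 4 to 10 samples, 3 held a sample whose gap to its nearest neighbour took an unusually large share of the group's range, where chance marks about 1 in 20. The averaged supplemented sample 5/6 had Flt1 at 9.32 beside 9.03 to 9.07 in the other 4 supplemented samples (gap over range 0.868). Repletion 4 had Pdgfrb at 8.71 beside 8.96 to 8.98 in the other 3 (0.901). Deficient 6 had Ednra at 9.52 beside 9.07 to 9.16 in the other 5 (0.798), and it is the deficient sample that lies on the array set of the depletion samples.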

How the results depend on the processing

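Counts below are of members called in each comparison, 5 members in all. Depletion vs supplemented is left out because it proposed the members. With the array set as a fixed block, deficient vs supplemented, chow vs supplemented and repletion vs supplemented gave 0. That block gave 1 (Ednrb each time) in repletion vs deficient, chow vs deficient, repletion vs depletion and depletion vs chow. As a random block, the array set gave 0 in deficient vs supplemented and chow 4-6 vs chow 1-3. It gave 1 in repletion vs deficient, chow vs deficient, repletion vs supplemented, repletion vs depletion and depletion vs chow. Fitting only the groups compared gave 0 in deficient vs supplemented and in chow 4-6 vs chow 1-3. A filter on the mean over all samples, which leaves Ednrb untested, gave 0 in chow vs supplemented and chow 4-6 vs chow 1-3, and 1 in repletion vs supplemented and depletion vs chow. All 25 arrays as samples gave 2 in chow vs supplemented and 1 in repletion vs chow. The authors' value table, median scaling and subtracted intensity with a floor each gave 0 in chow 4-6 vs chow 1-3. Averaging all probes of a gene gave 0 in every comparison. For Ednrb this joins a pair of detected probes that disagree, and for the others it mixes in dim probes. Leaving out 1 sample at a time gave 0 to 1 in deficient vs supplemented and chow 4-6 vs chow 1-3. It gave 1 to 2 in repletion vs depletion, 1 to 3 in depletion vs chow and 2 to 3 in depletion vs deficient. The main count held in the rest.

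Replicate numbers did not pair the samples: 36 same-numbered pairs had a median correlation of -0.036 (from -0.262 to 0.709), 8 of them over 0.1. A replicate block gave 1 in repletion vs chow (Ednrb 0.6, limma adjusted p = 0.0456) and 0 in chow 4-6 vs chow 1-3, where Ednra turned to -0.01. Ednra also turned in depletion vs deficient, to -0.03 with the fixed array set block; the cause was not tested. Of the member differences larger than their SE, none of the others changed sign. Among smaller ones, the fixed block turned Ednra in chow vs supplemented (0.06 to -0.13), repletion vs supplemented (0.06 to -0.2) and repletion vs chow (0.01 to -0.07). Untested Ednrb turned in depletion vs deficient (0.22 to -0.18). Untested Kdr, near the floor, turned as well, as in depletion vs deficient (0.09 to -0.06) and chow vs deficient (0.02 to -0.03). Median scaling moved the median of all probes to 0.15 in depletion vs supplemented and in depletion vs deficient, 0.18 in depletion vs chow and -0.14 in repletion vs depletion, and the share of calls that were higher from 33.3% to 83.9%, 34.7% to 65.8%, 49.3% to 77.8% and 50.1% to 28.1%. With the authors' value table that share went from 52% to 65.5% in chow vs supplemented, 45.7% to 56.3% in repletion vs supplemented and 49.3% to 38.1% in depletion vs chow, and with median scaling from 43% to 56.1% in repletion vs chow. Under median scaling Pdgfrb passed in depletion vs chow (0.6, limma adjusted p = 0.00578) and Ednra in depletion vs deficient (0.47, limma adjusted p = 0.0194). Kdr and most ligand probes lay under the array median in most samples and were not tested.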
